A study of Macaca mulatta with 95 samples.

Results

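The cytosolic ribosomal protein genes encode the proteins of the ribosome that translates messenger RNA in the cytoplasm. They were taken here as the rows of the expression table named RPL or RPS and a number, with no suffix or with A, L, AL, X or Y. RPSA, RPLP0, RPLP1 and RPLP2 were added. This gave 80 of 16049 genes, 48 of the large subunit and 32 of the small subunit. A further 14 rows that start with RPL or RPS were left out. They were 10 RPS6K kinase genes and RPL22L1, RPL26L1, RPS10-NUDT3 and RPS19BP1. RPL36A, RPL38 and RPS4Y1 were not analysed here. No protein or promoter sequence was used.

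The cytoplasmic ribosome has a small subunit, which binds the messenger RNA and reads its codons, and a large subunit, which joins the amino acids and lets the new chain out through a tunnel. Each ribosome holds 1 copy of nearly every ribosomal protein, apart from the paired proteins of the stalk, and the messenger RNAs of these proteins carry a terminal oligopyrimidine tract at the 5′ end, through which their translation is tied to growth signals. The preimplantation embryo starts with ribosomes and messenger RNA laid down in the oocyte and then makes its own after the embryonic genome is activated.

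The cells came from rhesus macaque (Macaca mulatta) embryos, fertilised after ovarian stimulation and oocyte collection and then cultured, and 95 single cells were sequenced in separate libraries. The 16-cell stage (about day 3) gave 3 outer and 2 inner cells, and the early morula (day 4) and late morula (day 4.5) each gave 5 outer and 5 inner cells. From the early blastocyst (day 5) came 6 outer and 10 inner cells, from the middle blastocyst on day 5.5 came 5 outer and 12 inner cells, from the late blastocyst (day 6) 19 inner cells and from the hatched blastocyst (day 7) 18 inner cells. Outer cells were those that took up a membrane dye before the embryo was taken apart, and the labels name no treatment or changed gene in any group. Cell titles start with A, B, D, G or H, and what these 5 letters mean is not given in the labels. All 16-cell cells carry B, all early morula cells H and all late morula cells D. The outer early blastocyst cells carry A and the outer middle blastocyst cells B. The inner early blastocyst cells carry A (5), G (3) or H (2), the inner middle blastocyst cells B (4), G (4) or H (4), the late blastocyst cells G (15) or H (4), and the hatched blastocyst cells G (9) or H (9). Letters can therefore be compared within a stage only among inner blastocyst cells, and stages within a letter only for B (16-cell and middle blastocyst), G (early to hatched blastocyst) and H (early morula and early to hatched blastocyst). Between the 16-cell stage and the late morula, stage and letter cannot be told apart. For 9 late blastocyst cells, 5 of letter G and all 4 of letter H, the source name says hatched blastocyst.

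Levels are given as RPKM, that is, reads divided by gene length in kilobases and by the library's megareads. No source used here names the unit, which was read from the values themselves. Because the table keeps the steps of whole reads, the reads behind each value could be read back, and the libraries held 3.56 to 25.1 megareads, with a median of 16.3. The late morula libraries were the shallowest, with medians of 6.52 megareads in outer and 9.80 in inner cells, and 2 cells had under 5 megareads. The labels tie no cell to an embryo, animal or culture. Cells therefore do not serve as replicates, each group counts as 1 sample, and none of the differences below carries a test. SDs describe how far single cells lay from their mean. RPKM is a relative level, so more RNA of a gene in a cell cannot be told apart from less RNA of the others. The protocols mention no molecular identifiers, so reads are not independent molecules and any count limit given covers counting error only.

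The members were among the most abundant RNAs of these cells. Of the 20 genes with the highest mean over all cells, 14 were members, and 73 of the 80 members had a value above 0 in every cell, against 7.22% of all genes (1159 genes). Each cell had 74 to 79 members above 0. The highest mean over the 95 cells was that of RPS2, a small-subunit protein at the entry of the messenger RNA channel, with 17129 RPKM. It was followed by RPS12, of the beak of the small subunit, with 15341 RPKM, the stalk protein RPLP1 with 10061, RPL8 of the large-subunit core with 7995 and RPS18 of the small-subunit head with 7355 RPKM. At the other end stood RPL3L (0.00123 RPKM), RPL10L (0.523), RPS10 (1.19), RPL39L (9.69) and RPS27L (71.1). Of these 5, RPS10 alone is not a copy of another ribosomal protein gene.  Genes of this family have many near-identical processed copies in primate genomes, and how reads shared with such copies were counted is not given in the sources used here.

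Summed over the members, ribosomal protein RNA made up between 12.0% and 54.0% of the summed RPKM of a cell. At the 16-cell stage the share was 26.7% ± 1.06 (SD, n = 3) in outer and 25.5% ± 1.18 (n = 2) in inner cells. It was 30.9% ± 1.83 and 32.8% ± 1.81 (n = 5 each) in outer and inner early morula cells, and 28.4% ± 3.05 and 26.6% ± 3.51 (n = 5 each) in the late morula. All 10 early morula cells lay above all 5 cells of the 16-cell stage, while late morula cells, at 22.7 to 32.0% inside, overlapped with both. As a share of reads, not corrected for gene length, the early morula cells (13.6 to 19.2%) and the 16-cell cells (14.2 to 16.1%) did overlap. The late morula mean was lower than that of the early morula by share of RPKM (-4.39 percentage points) and higher by share of reads (1.31 points). The lowest shares were in letters A and B at the early and middle blastocyst. Outer early blastocyst cells held 17.9% (n = 6, single cells 15.6 to 20.5%) and inner cells of the same letter 19.0% ± 6.07 (n = 5). The latter were the most uneven of the sets of up to 6 cells, with single cells from 12.0 to 28.5%. Outer and inner middle blastocyst cells of letter B held 16.3% ± 2.12 (n = 5) and 19.7% ± 2.45 (n = 4). In no set of outer and inner cells that shared stage and letter did the shares of RPKM of the 2 positions separate. By share of reads they separated in the middle blastocyst of letter B, with 7.38 to 9.73% in outer and 10.8 to 14.7% in inner cells, and overlapped in the other 4 stages. Within letter B, all 5 cells of the 16-cell stage lay above all 9 middle blastocyst cells by share of RPKM. They overlapped by share of reads, with inner middle blastocyst cell B-02 at 14.7% and inner 16-cell cell B-01 at 14.2%.

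**Figure D1:**
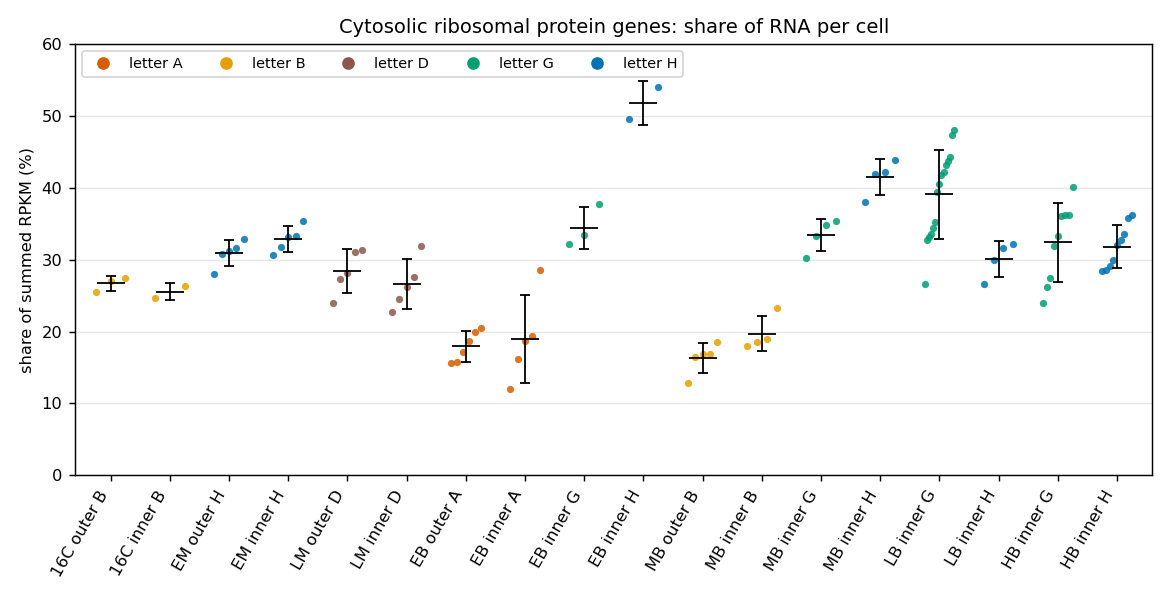
Share of the summed RPKM of each cell that falls on the 80 members (vertical axis, percent), by stage, position and title letter. Points are cells, the long dash is the mean and the bars are 1 SD over cells; 16C is the 16-cell stage, EM and LM the early and late morula, EB, MB, LB and HB the early, middle, late and hatched blastocyst. At the early and middle blastocyst, letters A and B sit between 12.0% and 28.5%, below every cell of letters G and H at those stages.

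Inner blastocyst cells of letters G and H held more. At the early blastocyst the share was 34.5% ± 2.92 (n = 3) for letter G and 51.8% ± 3.08 (n = 2) for letter H, and at the middle blastocyst 33.4% ± 2.27 and 41.5% ± 2.50 (n = 4 each). The 5 inner early blastocyst cells of letters G and H together averaged 41.4% against 19.0% for letter A, and the 8 inner middle blastocyst cells 37.5% against 19.7% for letter B. In neither stage did the ranges of the letters overlap. By share of reads they overlapped at the early blastocyst, with 15.9 to 36.0% in G and H and 6.90 to 16.8% in A, and not at the middle blastocyst, with 14.9 to 26.2% in G and H and 10.8 to 14.7% in B. Late blastocyst cells of letter G spread from 26.7 to 48.1% around a median of 40.5% (n = 15). The 10 of them whose source name also says late blastocyst averaged 40.9% ± 5.66 and the 5 whose source name says hatched 35.4% ± 5.97. Lineage markers moved with this split of the source names. The summed trophectoderm (outer layer) markers averaged 1349.6 RPKM in the 10 cells and 6687 in the 5, and the summed epiblast (embryo-forming) markers 6416 and 151 RPKM. Among the 10, cells G-11, G-12 and G-17 had summed hypoblast (inner lining) markers of 4207 to 5474 RPKM and ribosomal shares of 32.7 to 34.4%, while the other 7, with hypoblast sums of at most 84.2 and epiblast sums of 6995 to 12641 RPKM, had shares of 40.5 to 48.1%. The part of these markers in the shares was not tested. Letter H held 30.1% ± 2.52 (n = 4) in the late blastocyst. Hatched blastocyst cells held 32.4% ± 5.45 for letter G and 31.8% ± 3.01 for letter H (n = 9 each), with overlapping ranges. Within letter H, every hatched cell (28.4 to 36.2%) lay below every middle blastocyst cell (38.0 to 43.9%), and all early morula cells of that letter lay below all its early and middle blastocyst cells. Within letter G, hatched cells overlapped with the early and middle blastocyst cells. Counted as reads and not per length, the members took a mean of 8.81% (outer middle blastocyst) to 33.7% (inner early blastocyst of letter H) of a cell's reads. The exact binomial (Clopper-Pearson) 95% interval of such a share was at most 0.0374 percentage points to either side in any cell, far below the spread between cells.

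Other measures moved with the letters in these blastocyst cells. Inner early blastocyst cells of letter A had a median of 3279 genes reaching 1 RPKM and inner middle blastocyst cells of letter B 3652, against 4596 to 5454 in those of letters G and H. Of the 12 trophectoderm markers in the table, 4 of 10 measured were lower in letters G and H than in A and 7 of 10 lower than in B, while 2 and 3 were higher. Of all genes measured, 28.5% were lower and 45% higher at the early and 24.4% lower and 55% higher at the middle blastocyst. Their summed level ran from 2844 to 14265 RPKM in letter A and 28235 to 42761 in letter B, against 1092 to 2050.3 (early, G), 264 to 557 (early, H), 689 to 2519 (middle, G) and 1058 to 3871 (middle, H). KRT8, a keratin of the outer layer, averaged 4677 and 16110.0 RPKM in letters A and B and 14.6 to 572 in the 4 sets of G and H, whereas CDX2 was at most 24.8 RPKM in any of these 6 sets. Of the hypoblast markers, 7 of 9 were lower and 2 higher in G and H than in A, and 0 of 9 lower and 5 higher than in B. Of the epiblast markers 4 of 8 and 4 of 7 were lower. The summed hypoblast markers of inner early blastocyst cells of A were 5800 RPKM in cell A-08 and 78.4 to 486 in the others. In those of G and H they were 20.2 to 134 RPKM, so the mean of A rests largely on 1 cell. The part of these differences in the ribosomal share was not tested. Markers of cumulus cells (8 genes in the table), which surround the oocyte, summed to 15.8 RPKM in late blastocyst cell G-27 and to at most 4.83 in any other cell. None of these markers reached a mean of 5 RPKM on either side of any blastocyst comparison.

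The balance of the subunits was taken as the log2 ratio of the summed RPKM of large-subunit to small-subunit members in each cell. These sums run over 48 large-subunit and 32 small-subunit members, so 0 does not mean an equal level per member. The ratio stayed within 1 log2 unit of 0 in all 95 cells. At the 16-cell stage the 3 outer cells had -0.09, -0.03 and 0.12, and the mean was 0.33 in the 2 inner cells, both above all outer ones. Early morula cells lay close to 0, at -0.04 ± 0.04 outside and -0.08 ± 0.04 inside (n = 5 each). Late morula cells had similar means of -0.08 ± 0.36 and -0.11 ± 0.26 but ran from -0.55 to 0.38 among the 5 outer cells alone. In letters A and B of the blastocyst the large-subunit sum was on average the higher one. The log2 ratio was 0.23 ± 0.20 (outer, n = 6) and 0.33 ± 0.15 (inner, n = 5) in the early blastocyst. In the middle blastocyst it was 0.40 ± 0.24 (n = 5) and 0.40 ± 0.12 (n = 4). Inner cells of letter G lay at -0.03 ± 0.07 (n = 3) and -0.03 ± 0.03 (n = 4), and those of letter H at -0.28 ± 0.05 (n = 2) and -0.21 ± 0.06 (n = 4), so that no inner cell of G or H reached the inner cells of A or B of its stage. Late blastocyst cells were again near 0, with -0.04 ± 0.11 (n = 15) and 0.02 ± 0.09 (n = 4), and hatched cells stood at 0.15 ± 0.11 and 0.13 ± 0.08 (n = 9 each). Within letter H the 9 hatched cells were all above the 4 middle blastocyst cells, by 0.34 on average.

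**Figure D2:**
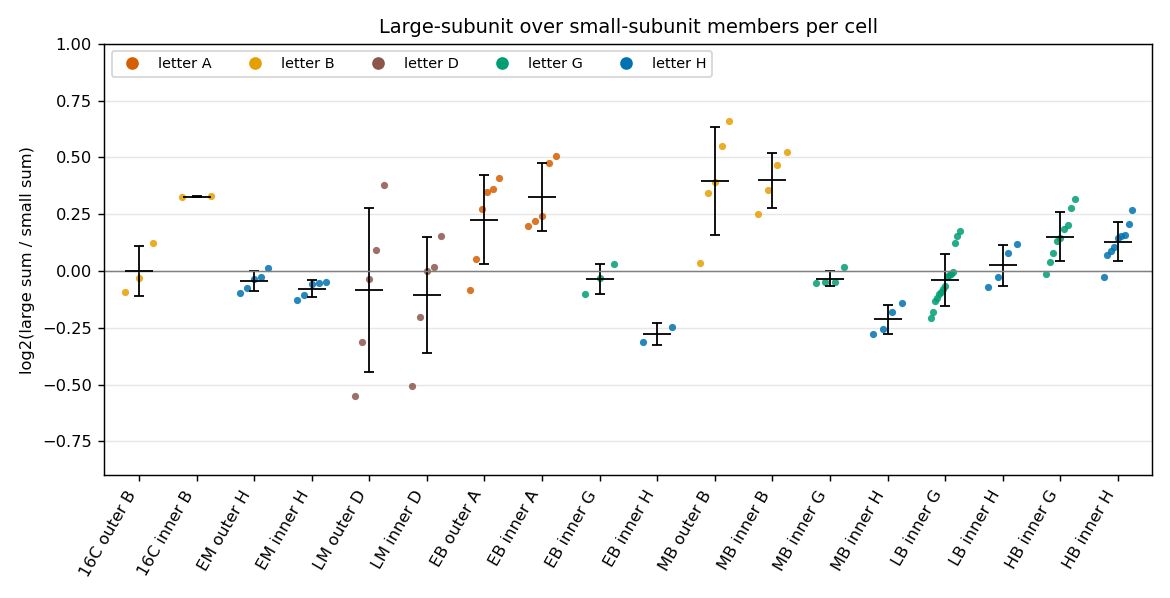
Log2 ratio of the summed RPKM of large-subunit members to that of small-subunit members (vertical axis) in each cell, by stage, position and title letter. Points are cells, long dashes means and bars 1 SD over cells. At the early and middle blastocyst, letters A and B lie mostly above 0 and inner cells of letter H below it.

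This balance rests on a few very abundant members. Without the 3 highest members of each subunit, the mean log2 ratio was positive for every letter, at 0.79, 0.80, 0.59, 0.28 and 0.17 in alphabetical order of the letters, against 0.27, 0.30, -0.10, 0.02 and -0.03 with them. With the median member of each subunit in place of the sum it was negative for every letter (-0.52, -0.87, -1.11, -0.46 and -0.50). By this measure inner middle blastocyst cells of B had a mean of -1.10, below those of G (-0.42) and H (-0.74). At the early blastocyst inner cells of A had -0.44, between G (-0.34) and H (-0.96). Outer and inner 16-cell cells then overlapped. The order of the letters and the split of the 16-cell positions seen in the sums thus did not hold for the median member. RPS2 alone supplied 15.8% and 17.2% of the ribosomal sum in inner and outer 16-cell cells, 24.7% and 30.8% in outer and inner late morula cells and 11.1% to 24.8% in the blastocyst sets of A and B. In the 10 sets of letters G and H its share of the sum was 2.01% to 4.37%. Over the 95 cells the large-subunit and small-subunit shares of RNA went together, with Pearson's r = 0.92 and Spearman's rho = 0.92 (n = 95 cells, which share letters and depth, as a description).

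Single members differed between the letters. In inner early blastocyst cells, 55 of 77 measured members were at least 2-fold higher in letters G and H than in letter A, against 45% of all 6417 genes measured, and 2 were lower (background 28.5%). A gene counts as measured here when its mean reaches 5 RPKM on either side, and differences are log2 ratios of group means after adding 1 RPKM. For 39 members every cell of G and H was above every cell of A (background 7.06%), and for 1 the reverse held (1.84%). Members and the genes of the background were not matched for level, in this or the later comparisons. The median log2 difference of the members was 1.85, that of all genes 0.62. In inner middle blastocyst cells, 58 of 77 members were higher in G and H than in B (background 55% of 6546) and 5 lower (24.4%). Cells did not overlap for 50 members above (7.76%) and 4 below (4.84%), and the median was 2.77 against 1.53 for all genes. The shares of members past 2-fold upward were thus above the background in both stages. Cells were also rescaled by median-of-ratios size factors, which are set from the genes above 0 in most cells. The members' medians were then 0.83 and 2.01, of the same sign, beside all-gene medians of -0.56 and 0.04. At this scaling 37 of 77 members were higher and 7 lower at the early blastocyst. At the middle blastocyst 43 of 76 were higher and 7 lower. The share of all genes past 2-fold was not counted at this scaling. Without rescaling, 30 of 46 large-subunit members were higher at the early and 33 of 46 at the middle blastocyst, with medians of 1.57 and 2.52. Of the small-subunit members, 25 of 31 and 25 of 31 were higher, with medians of 1.95 and 3.09.

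RPL39, a short protein that lines the exit tunnel, showed the largest difference. The 5 inner early blastocyst cells of letter A had 0, 1.10, 4.37, 5.88 and 10.5 RPKM and the 4 inner middle blastocyst cells of letter B 0, 0.12, 0.225 and 0.49. In letter G the values were 226, 511 and 1272 at the early and 980.4, 1097, 1477 and 2032 at the middle blastocyst, and in letter H 6971 and 8047 and 206, 289.7, 1257 and 1542. Every cell of G and H was thus above every cell of A and B, with a difference of 9.31 on the log2 scale at the early and 9.84 at the middle blastocyst. The value of 0 in 1 cell of each of letters A and B allows up to 0.633 and 0.42 RPKM (3 reads). RPL34, of the large subunit, had 1.18, 3.80, 5.81, 9.66 and 12.3 RPKM in letter A and 0.529, 1.29, 1.70 and 7.58 in letter B, against 260.5, 577 and 597 (early, G), 2008 and 2566 (early, H), 351, 777, 842 and 960.5 (middle, G) and 329.7, 666, 808 and 1691 (middle, H). Here too no cells overlapped, and the log2 differences were 7.32 and 7.74.

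The small-subunit members with the largest gaps behaved in the same way. RPS27, a zinc-binding protein, averaged 84.8 RPKM over the 9 inner cells of A and B (range 5.84 to 294) and 3650.2 RPKM over the 13 of G and H (982 to 12317). RPS29, another zinc-binding protein, averaged 199.5 (37.3 to 575) and 8561 RPKM (2906 to 20396), and RPS24 111 and 3386 RPKM. For these 3 members the 2 ranges did not overlap. RPS27A, made as a fusion with ubiquitin, averaged 10.7 ± 4.00 RPKM in inner middle blastocyst cells of letter B (SD, n = 4) and 3436 ± 1604 in those of G and H (n = 8), a log2 difference of 8.19. RPS3A averaged 10.1 ± 2.54 and 2494 ± 710.1 RPKM in the same cells, a difference of 7.81.

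Fewer members went the other way. RPL13, of the large subunit, averaged 2474 RPKM in the 9 cells of A and B (720.2 to 6019) and 624 in the 13 of G and H (93.2 to 1692). RPL13A, another large-subunit member, averaged 8135 (5979 to 12720.0) and 2918 RPKM (1731 to 4565). Its ranges did not overlap over both stages together. For RPL8, whose protein reaches the peptidyl transferase centre, the values in letter B were 15471, 18348, 19496 and 26160.2 RPKM, all above those of G (2998, 3001, 3255 and 4631) and H (2962, 3431, 3851 and 5245) at the middle blastocyst. At the early blastocyst the cells of A (3781, 6608, 7644, 7706 and 16736) overlapped with those of G (3983, 6815 and 7478). RPS2 had 30519, 32069, 35550.4 and 38464 RPKM in letter B, 2083, 7941, 8697 and 9231 in G and 5862, 6087, 10811 and 13206 in H, a log2 difference of -2.10 without overlap. At the early blastocyst its cells overlapped, with 8067, 9054, 14796, 20834 and 21361 RPKM in A, 6040.5, 6616 and 14418 in G and 8997 and 10927 in H. RPS2, RPL8 and RPL13A were among the most abundant members of the whole table.

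**Figure D3:**
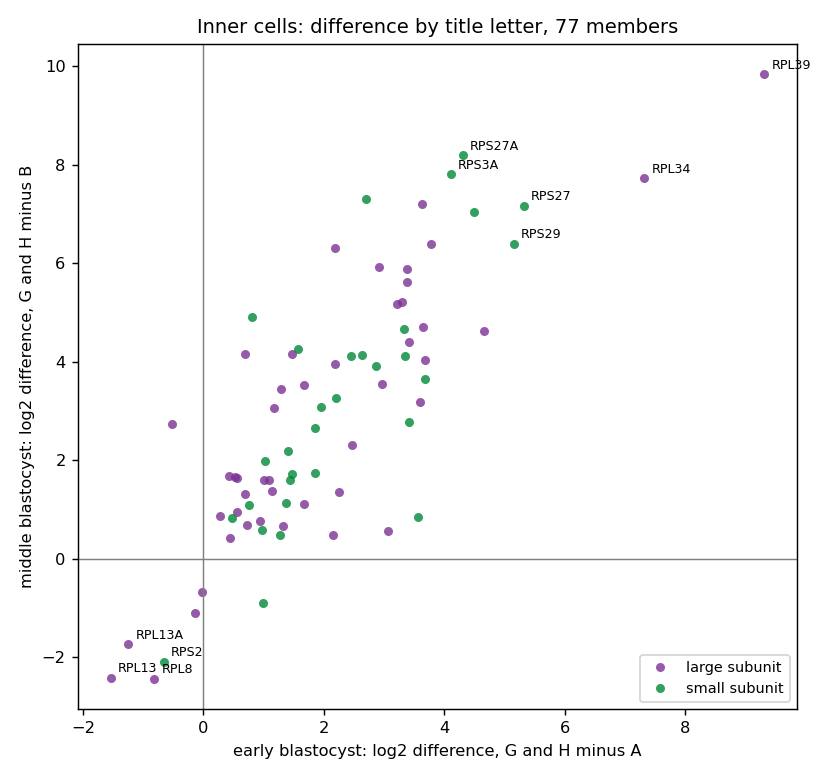
Log2 difference of mean RPKM (after adding 1) between inner cells of letters G and H and inner cells of letter A at the early blastocyst (horizontal axis) and of letter B at the middle blastocyst (vertical axis). Each point is 1 of the 77 members with a mean of at least 5 RPKM. RPL39 lies at 9.31 and 9.84, and RPL13, RPL13A, RPL8 and RPS2 lie below 0 on both axes.

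The 2 stages share no cells, and the letter difference of the 77 members with a mean of at least 5 RPKM was alike in both, with Pearson's r = 0.81 and Spearman's rho = 0.76 across genes. Across all 5427 genes measured in both the same measures were 0.53 and 0.54. These are descriptions, since the letters G and H stand on both sides and genes are not replicates. The 25 members under 550 bases long had a median difference of 3.19 between G and H and A and B, the 28 from 550 up to 900 bases 1.32 and the 24 of 900 bases or more 1.87. Single members ran from -0.04 to 9.15 in the shortest and from -1.99 to 7.35 in the longest class. The relation to length was weak, at rho = -0.27 over 77 members.

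Profiles of the members were also compared between single cells of all stages. The early and middle blastocyst alone hold cells of both A or B and G or H, so elsewhere a division by letter cannot be told apart from stage. Taking log2(RPKM + 1) of the 77 members as a profile, pairs of cells within letters A, B and D had a median Pearson's r of 0.877 (595 pairs) and pairs within letters G and H 0.898 (1770 pairs). Pairs across the 2 sets of letters had 0.623 (2100 pairs). The ranges overlapped, at 0.729 to 0.973, 0.643 to 0.990 and 0.223 to 0.861 in the same order. Pairs within letters include cells of the same stage, position and letter, and pairs across do not. In the heat map of the 18 sets of cells, RPL34 was low in the sets of A, B and D and high in those of G and H. RPL39 was likewise high in G and H and low in A and B, but in letter D the outer late morula cells averaged 181 RPKM and the inner cells 3.93. RPL13, RPS2, RPL8 and RPL13A stood at the other end of the order. The 2 inner early blastocyst cells of letter H stood out with the highest levels of many members, such as RPS29 at 17519 and 20396 RPKM and RPL41, the shortest ribosomal protein, at 14978 and 16296 RPKM.

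**Figure D4:**
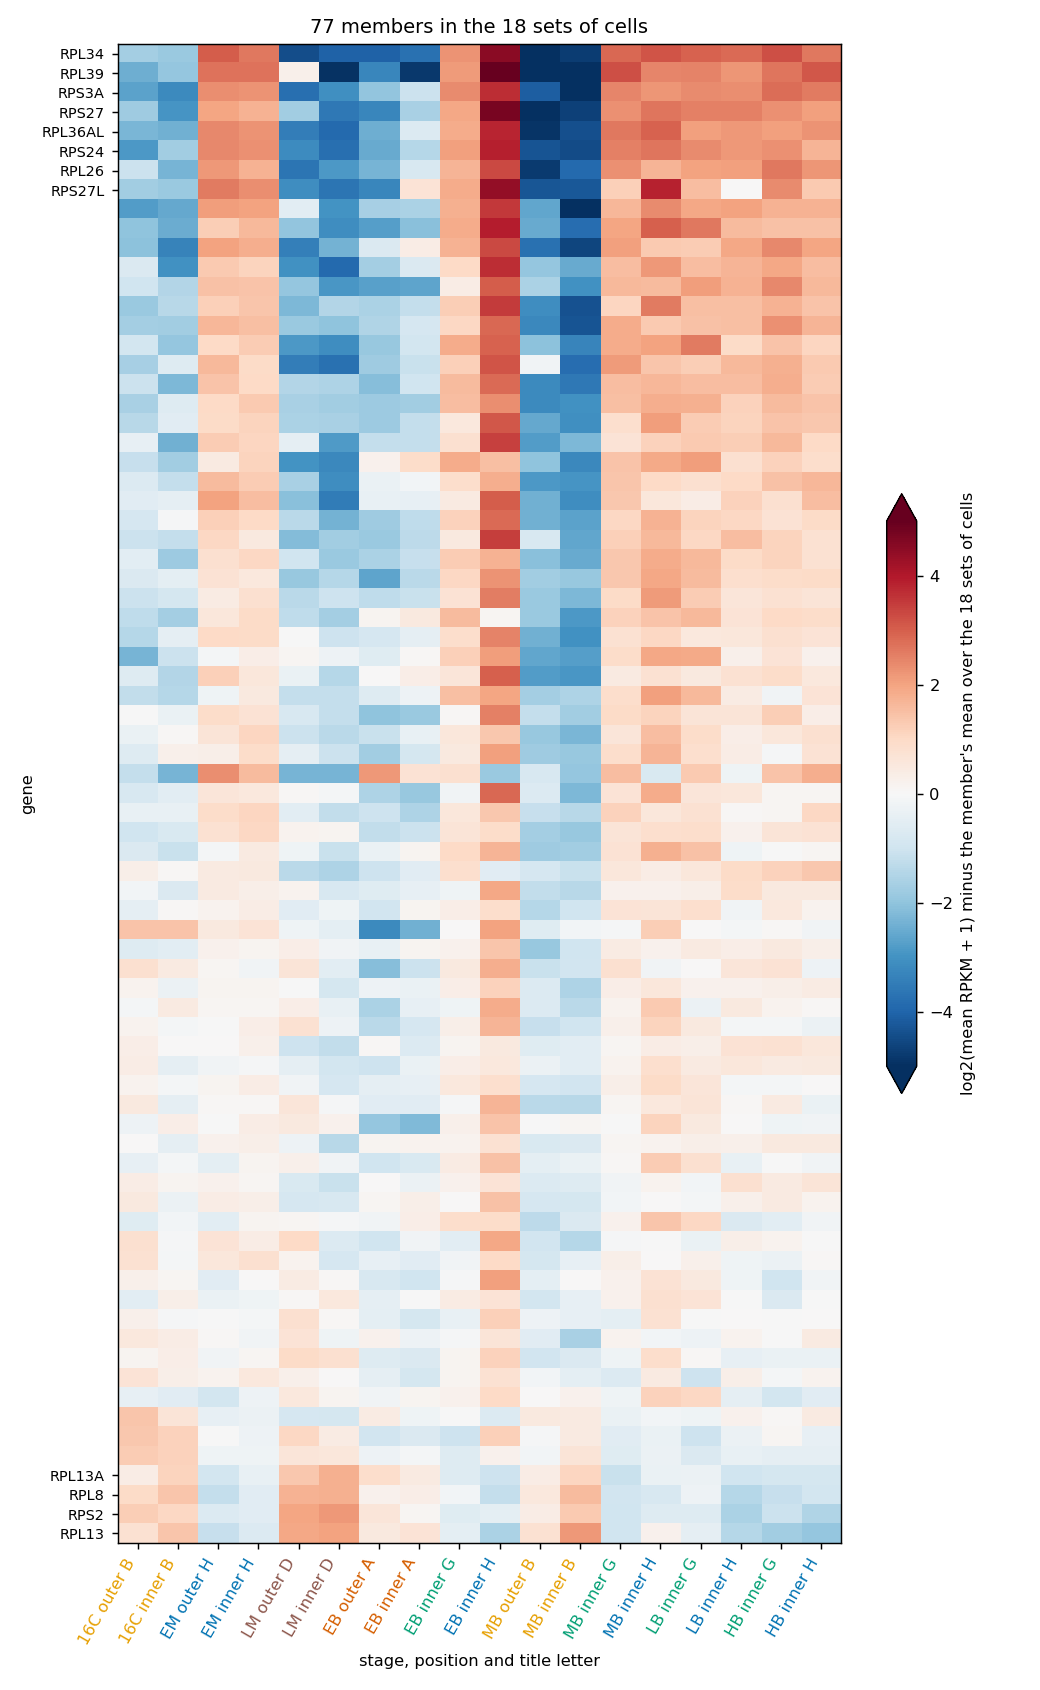
Level of the 77 members with a mean of at least 5 RPKM (rows) in the 18 sets of cells of 1 stage, position and letter (columns, coloured by letter). Colour is log2(mean RPKM + 1) minus the member's mean over the 18 sets. Rows are ordered by the difference between the sets of G and H and those of A, B and D, with names at the first 8 and last 4 rows, so RPL34 and RPL39 stand at the top and RPS2 and RPL13 at the bottom.

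Early morula cells (letter H) were compared with 16-cell cells (letter B). Of 78 measured members, 40 were at least 2-fold higher in the early morula (background 44.7% of 6709 genes) and 7 lower (25.1%). The median difference was 1.05, against 0.64 for all genes. For 38 members all 10 early morula cells were above all 5 cells of the 16-cell stage (13.4%) and for 8 below (5.95%). The share past 2-fold upward was only slightly above that of all genes, while the share without overlap was higher. Early morula cells also had more genes reaching 1 RPKM, with means of 6893 outside and 6067 inside against 5625 and 5357 at the 16-cell stage. The largest differences upward were those of RPS3A, from 67.6 ± 46.4 to 2401 ± 348 RPKM (SD, n = 5 and 10; log2 difference 5.13), RPL39 (31.4 ± 22.9 to 984 ± 141 RPKM, 4.93) and RPS27A (125 ± 98.1 to 3388 ± 494 RPKM, 4.75). Lower in the early morula were RPL8 (-1.98), RPL13 (-1.93) and RPS2, which went from 30789 ± 4237 to 9042 ± 2517 RPKM (-1.77).

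Late morula cells (letter D) were compared with early morula cells (letter H), which also stand on one side of the preceding comparison. Here 42 of 77 members were lower in the late morula (background 49% of 6603 genes) and 4 higher (23.7%). Cells did not overlap for 35 members below (11.1%) and 4 above (1.3%). The median difference was -1.36, against -0.92 for all genes, and with median-of-ratios size factors it was -0.05 (all genes 0.82) with 23 members higher and 28 lower. Late morula cells had fewer genes reaching 1 RPKM, with means of 3808 outside and 3733 inside against 6893 and 6067 in the early morula, and the shallowest libraries. The part of these differences in the levels of the members was not tested. The largest differences downward were those of RPL34, with 0.501, 1.02, 1.74, 3.89 and 11.2 RPKM in the 5 outer and 1.04, 1.42, 2.82, 6.34 and 14.0 in the 5 inner late morula cells, against 678, 714, 763, 949 and 954 and 432, 606, 662, 700.1 and 727 in the early morula (log2 difference -7.06), RPL36AL (-5.98) and RPS27L (-5.82). RPL13 (2.86), RPS2 (2.70) and RPL8 (2.59) were higher. RPS2 reached 58770.4 ± 19082 RPKM in the late morula (SD, n = 10), its highest level in any stage. RPL34 was thus at most 14.0 RPKM in the late morula cells of letter D and at most 12.3 in the inner blastocyst cells of letters A and B, whereas RPL39 was not low in all late morula cells.

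**Figure D5:**
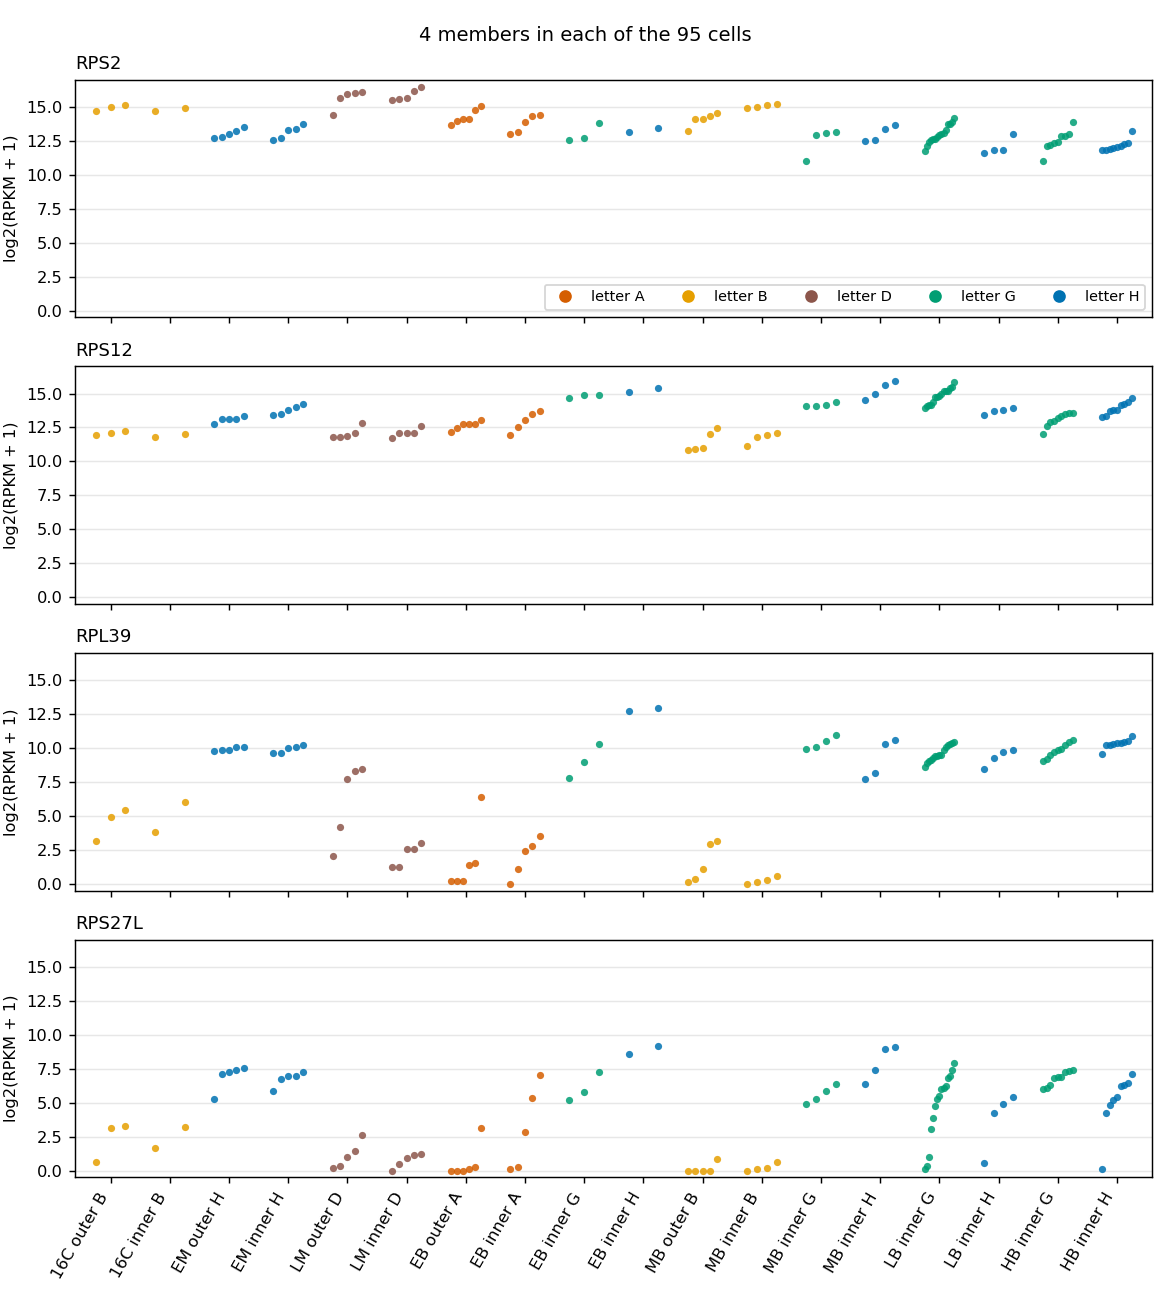
Level of RPS2, RPS12, RPL39 and RPS27L in each of the 95 cells (vertical axis, log2(RPKM + 1)), by stage, position and title letter; each point is 1 cell, and cells of a set are drawn in order of their value. RPL39 is above 7.5 on this scale in every cell of letters G and H and below 6.5 in every cell of letters A and B, while RPS2 reaches its highest values in the late morula.

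Outer and inner cells of the same stage and letter had similar levels of most members. In the early morula none of 77 measured members differed by 2-fold in either direction (backgrounds 16.1% higher in outer cells and 9.12% lower, of 6576 genes), and the median was -0.03, or 0.07 with cells scaled to equal totals. There was 1 member higher without outer H-05 or inner H-04 or H-05, and 1 lower without inner H-02, H-03, H-05 or H-08. In the 16-cell stage 7 of 77 were higher in outer cells (24%) and 4 lower (20.6%). RPL41 was higher in outer cells, with 444, 873 and 873 against 126 and 171 RPKM and no overlap, as were RPL31 of the tunnel exit (137, 238 and 313 against 51.3 and 62.1) and RPS18 (2139, 3352 and 3675 against 1053 and 1422). RPL10L (-3.87), RPS13 (-1.26) and RPS24 (-1.10) were lower outside, with overlapping cells for RPS24. With 3 and 2 cells these counts moved with single libraries. Without inner cell B-01 there were 13 higher and 10 lower, and the number lower was 1 without inner B-02, 2 without outer B-02, and 7 without outer B-01 or B-09.

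In the late morula 15 of 74 members were higher outside (31.2% of 4868 genes) and 1 lower (26.9%), with a median of 0.36. The number higher was 9 without inner cell D-10 and 25 with median-of-ratios size factors. RPL39 was at 3.09, 17.3, 209, 321 and 353 RPKM in outer and 1.38, 1.41, 4.93, 5.02 and 6.89 in inner cells, so that 4 of the 5 outer cells were above every inner cell and 1 overlapped with them. RPS27A (2.46) and RPL31 (2.40) followed, and RPL7, a large-subunit member, was lower outside (-1.05, between 5.51, 13.7, 35.5, 43.7 and 46.2 RPKM outside and 15.9, 28.1, 34.9, 113 and 113 inside). No member was lower without outer D-03 or inner D-01, while 4 were lower without outer D-05 and 2 without outer D-10 or inner D-08.

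In the early blastocyst (letter A) 11 of 77 members were lower outside (32.7% of 5350 genes) and 2 higher (29%). The members' median was -0.33, which turned to 0.05 with median-of-ratios size factors. The number lower was 4 without inner cell A-07, 6 without outer A-02 and 6 without cells under 3000 genes, and the number higher was 1 without outer A-05 or A-08. RPS27L had 0.0578, 0.225, 6.15, 40.3 and 131 RPKM inside and 0 at the lowest, 0.0529 at the median and 7.86 at the highest outside, so that 2 inner cells stood above all outer ones. RPL36AL (-1.76) and RPS27 (-1.64) were also lower, and RPL39 (1.55) and its copy RPL39L (1.45) higher, with outer RPL39 at 0.139 at the lowest, 0.9 at the median and 84.2 at the highest RPKM. In the middle blastocyst (letter B) 13 of 73 members were higher outside (36.3% of 4904 genes) and 2 lower (24.7%). The number higher was 6 without outer cell B-03, 8 without outer B-01 and 23 without inner B-02. RPL22 had 0.246, 0.984, 31.5, 63.5 and 87.7 RPKM outside and 0.041, 0.154, 3.07 and 4.83 inside (3.64), and RPS27A (3.55) and RPL39 (1.80) were higher as well. RPL13 (-1.41) and RPL8 (-1.04) were lower outside. The number lower was 1 without outer B-02 or B-03, 4 without inner B-05 and 5 without outer B-06 or B-07. Across the 5 comparisons of position the shares of members past 2-fold in a given direction were all below those of all genes.

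Within letter H, 19 of 77 members were lower in hatched than in middle blastocyst inner cells (background 22.3% of 7052 genes) and 1 higher (37.2%). The median difference was -0.54 for the members and 0.31 for all genes. It stayed below 0 with median-of-ratios size factors (-0.89, all genes -0.18) and with equal totals (-0.19). Lineage markers differed between these cells, with mean summed levels of 2782 (middle) and 6320.1 RPKM (hatched) for the epiblast, 2009 and 1127 for the trophectoderm and 37.9 and 18.7 for the hypoblast list. The small subunit had 12 of 31 members lower and the large subunit 7 of 46. RPS27L went from 83.9, 167, 504 and 549.9 RPKM in the 4 middle blastocyst cells to 0.0559 at the lowest, 42.8 at the median and 136 at the highest in the 9 hatched cells (-2.54). RPL13 (-2.14) and RPS21 (-1.74) were also lower. RPL39L, the only one past 2-fold upward, was at 1.99 ± 3.07 and 16.7 ± 25.7 RPKM (2.57). Its medians were 0.700 (middle) and 0.550 RPKM (hatched), so the higher mean came from some of the hatched cells, with 64.7 at the highest. The number of members higher was 2 without hatched H-05, H-07, H-14 or H-15, 3 without middle H-05 and 4 without middle H-03. RPS12 was the most abundant member of the middle blastocyst cells of letter H, at 23851, 31425, 49876 and 63147 RPKM, against 9772 at the lowest, 13884 at the median and 26533 at the highest in the hatched cells, with overlap. The number of members lower was 37 with median-of-ratios size factors, and the number higher 6 with equal totals.

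Letter G was compared between the 7 early and middle blastocyst inner cells and the 9 hatched cells. Of 77 members, 4 were lower in the hatched cells (19.6% of 7249 genes) and 1 higher (26.3%). The median was 0.02, or -0.04 with median-of-ratios size factors. Lineage markers differed here too, with mean summed levels of 2482 (early), 1735 (middle) and 114 RPKM (hatched) for the epiblast, 1707, 1550.2 and 5984 for the trophectoderm and 104, 2609 and 832 for the hypoblast list. The hatched means of the epiblast and hypoblast lists rest largely on cell G-14, and that of the trophectoderm list was raised by cell G-02. Medians there were 6.97 RPKM for the epiblast, 3727 for the trophectoderm and 155 for the hypoblast list. Cell G-14 had 926 RPKM for the epiblast and 6281 for the hypoblast list. For the trophectoderm list cell G-02 had 21404 RPKM and the other hatched cells of G 914 to 8660. The part of the lineage markers in the levels of the members was not tested in either letter. RPS12 was lower, from 25734, 30087 and 30672 (early) and 17349, 17508, 18477 and 21189.6 RPKM (middle) to 4079 at the lowest, 9291 at the median and 12340.4 at the highest in the hatched cells (-1.34), with no overlap. RPL28 (-1.09) and the stalk-base protein RPL12 (-1.07) were lower too, and RPL37 was higher (1.20). The number lower was 2 without hatched G-06, and the number higher 3 without early G-11 or middle G-04. With equal totals 1 was lower. In the hatched blastocyst itself, letters H and G had nearly the same levels. No member of 77 was higher in H (20.9% of 7459 genes) and 1 was lower (24.1%), namely RPS27L with 0.0559 at the lowest, 42.8 at the median and 136 at the highest RPKM in H and 62.9 at the lowest, 116 at the median and 171 at the highest in G. The median of the members was -0.09. The number higher was 1 without G-11, G-16 or G-20. The number lower was 0 without H-05, H-09, H-15, G-10 or G-20 and 2 without H-10, G-02 or G-06. The same cells differed widely in lineage markers. Of 8 measured epiblast markers 7 were higher in H and of 12 trophectoderm markers 11 were lower, with POU5F1 at a mean of 3039 RPKM in H and 2.40 in G, and GATA3 at 1.09 and 364.

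By role within the ribosome, the stalk proteins RPLP0, RPLP1, RPLP2 and RPL12, which recruit the elongation factors, together made up 7.91% (outer early morula) to 14.3% (outer middle blastocyst) of the members' summed RPKM, the narrowest range of the role groups described here as a ratio of highest to lowest set. RPLP1 had the highest mean of the 4 in every set. RPL5 and RPL11, which form a complex with the 5S ribosomal RNA and can bind MDM2, made up 1.64% ± 0.227 (SD, n = 4) of the sum in inner middle blastocyst cells of letter B and 6.54% ± 1.81 (n = 5) in inner early blastocyst cells of letter A, the lowest and the highest of the 18 sets, so that these did not follow the division of letters. Across the letters RPL5 averaged 438 RPKM in inner middle blastocyst cells of B and 7034 in those of G, and RPL11 1926 and 6293. The 4 large-subunit members around the peptidyl transferase centre (RPL3, RPL4, RPL8 and RPL10) made up 17.1% ± 2.61 in inner middle blastocyst cells of B, 4.90% ± 0.697 in those of G and 2.90% ± 0.272 in those of H (n = 4 each). They did not move as a unit, since RPL8 was lower and RPL10 higher in G and H (log2 differences -2.44 and 2.31). Members at the tunnel exit (RPL17, RPL19, RPL23A, RPL26, RPL31, RPL35 and RPL39) made up 2.33% ± 0.385 (inner late morula, n = 5) to 8.09% ± 0.991 (inner early blastocyst of H, n = 2). RPL19 was at 3274 ± 1279 RPKM (SD, n = 4) in B and 7704 ± 1471 RPKM (SD, n = 4) in G.

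In the small subunit, RPS2 and RPS3 at the messenger RNA entry made up 31.1% ± 6.88 (inner late morula, n = 5) at the highest and 2.33% ± 0.561 (inner early blastocyst of H, n = 2) at the lowest. RPS3 itself had means of 536 to 1984 RPKM over the 18 sets, so the range came from RPS2. RPS15, RPS23 and RPS27A, of which RPS15 and RPS23 lie by the decoding site, made up 0.875% ± 0.599 (outer early blastocyst, n = 6) to 3.12% ± 0.115. RPS15 differed by less than 2-fold and in opposite directions (0.99 at the early and -0.89 at the middle blastocyst, G and H minus A or B), whereas RPS23 was higher in G and H (3.35 and 4.11). At the messenger RNA exit, RPS28 had 2698, 3340.1 and 3595 RPKM in outer and 2715 and 3733 in inner 16-cell cells and 4678 and 5011 in inner early blastocyst cells of H, its highest sets, and was lowest in the early blastocyst cells of letter A, with 68.8 at the lowest, 124 at the median and 224 at the highest outside and 66.2, 188, 216, 217 and 438 inside. RPS19, whose human gene is mutated in Diamond-Blackfan anaemia, had ranges without overlap between the 9 inner cells of A and B (519.8 to 1979 RPKM) and the 13 of G and H (2037 to 9236).

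Members that are copies of other members were mostly scarce. RPL3L, which in adults is a protein of striated muscle, was above 0 in 1 cell (hatched inner G-06, 0.117 RPKM), while RPL3 averaged 2213 RPKM. RPL10L, an autosomal copy of the X-linked RPL10 known from the testis, was above 0 in 5 cells. Both inner 16-cell cells had it, with 21.5 RPKM (287 reads) and 5.66 RPKM (76 reads), and the 3 outer 16-cell cells were at 0, which allows up to 0.246 RPKM (3 reads). It had 22.3 RPKM (319 reads) in 1 inner early morula cell, H-04, and 1 read in each of 2 other early morula cells. It was at 0 in the 80 later cells, which allows up to 1.03 RPKM in the shallowest of them. RPL10, by contrast, was above 200 RPKM in every cell.

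RPL39L, also known from the testis, was above 0 in 46 cells but in none of the 10 late morula cells (3 reads would be 0.317 to 1.50 RPKM). Its highest set means were 24.6 ± 12.5 RPKM (SD, n = 5) in outer early morula and 22.0 ± 49.1 RPKM (SD, n = 6) in outer early blastocyst cells, and unlike RPL39 it differed by only 0.56 between letters G and H and A and B. RPL36AL was abundant and followed the letters, at 8.98 ± 6.85 RPKM (SD, n = 4) in inner middle blastocyst cells of B and 1305 ± 625 RPKM (SD, n = 4) in those of G. RPS27L, a copy of RPS27 known as a target of p53, was highest in letter H at the early (376 and 569 RPKM) and middle blastocyst (83.9, 167, 504 and 549.9). In the late and hatched blastocyst its means in letter H, 21.9 and 55.3 RPKM, were below those of G, 64.9 and 115. In the middle blastocyst cells of letter B, 5 of 9 cells were at 0 (3 reads would be at most 0.199 RPKM) and the highest had 0.792 RPKM. RPS27 in the same 9 cells averaged 11.0 (outer) and 15.7 RPKM (inner). RPS4X, the X-linked form of RPS4, averaged 1472 RPKM over all cells.

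RPS10 stood apart from the other core members. Its mean was 1.19 RPKM, it was above 0 in 47 of 95 cells, and no cell had more than 98 reads of it. RPS10-NUDT3, a readthrough gene that shares the exons of RPS10 and is not a member, was listed at 0 in all 95 cells. How reads that fall on overlapping genes were counted is not given in the sources used here, so the RNA level of RPS10 is uncertain.

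Genes that work with the ribosomal proteins were counted in the same comparisons, to be read against 45% of all genes higher and 28.5% lower in G and H than in A, and 55% higher and 24.4% lower than in B. FAU and GNB2L1 encode other proteins of the ribosome. GNB2L1 (RACK1 of the small-subunit head) followed RPS2 and not RPL39, with 16757 ± 4615 RPKM in inner middle blastocyst cells of letter B and 5502 ± 2881 in those of G and H (-1.61). FAU differed by -0.51 in the same cells. At the early blastocyst FAU went the other way, with means of 1153 RPKM in inner cells of A, 1779 in those of G and 4577 in those of H. Of the elongation factors and other genes with a terminal oligopyrimidine tract, 8 of 15 measured genes were higher and 3 lower in G and H than in A, and 10 of 14 higher and 2 lower than in B, led by EIF3E (0.00797 ± 0.0159 against 302 ± 188 RPKM). Of 21 initiation factors, 9 were higher and 3 lower than in A, and 15 of 21 were higher and 2 lower than in B. Ribosome assembly genes gave 12 of 28 higher and 6 lower at the early and 15 of 28 higher and 3 lower at the middle blastocyst, close to the share of all genes that were higher. RNA polymerase I genes gave 2 of 14 higher and 6 lower, and 7 of 13 higher and 4 lower. The 70 proteins of the mitochondrial ribosome, a separate ribosome, had 24 of 68 measured genes higher and 15 lower at the early, and 37 of 69 higher and 13 lower at the middle blastocyst, with medians of 0.38 and 1.73. These medians lay near those of all genes (0.62 and 1.53), below those of the cytosolic members (1.85 and 2.77).

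Hatched and middle blastocyst cells of letter H were compared for the same lists, beside a member median of -0.54 and with 37.2% of all genes higher and 22.3% lower in the hatched cells. FAU was lower (-1.14), and the mitochondrial ribosomal proteins had 6 of 68 genes higher, 13 lower and a median of -0.48. The translation factors had medians above 0, at 0.34 for the elongation list and 0.66 for the initiation factors, beside 0.31 for all genes. There 4 of 15 elongation and oligopyrimidine-tract genes were higher and 1 lower, 7 of 21 initiation factors higher and 2 lower, and 9 of 29 assembly genes higher and 2 lower. The shares higher in these 3 lists were below that of all genes. EEF1G went from 695 ± 341 to 2101 ± 290.0 RPKM (SD, n = 4 and 9). Of the chaperones that carry single ribosomal proteins, TSR2, which binds RPS26, was at 0.0565 ± 0.0681 and 41.5 ± 37.2 RPKM, while RPS26 itself was at 2026, 2934, 3524 and 5365 RPKM in the middle blastocyst cells and 1586 at the lowest, 1953 at the median and 2429.6 at the highest in the hatched cells. Of the regulators of ribosomal protein production, 4 of 15 measured genes were higher and 3 lower, and MYC went from 11.6 ± 12.6 to 75.8 ± 63.0 RPKM. Of the 4 p53-pathway genes in the table, 2 were lower and 0 higher. Stress-response genes gave 8 of 11 higher and 1 lower, with ASNS, an amino acid synthesis gene, at 15.6 ± 20.2 and 294 ± 145 RPKM. Of the fibroblast markers in the table, COL1A2 averaged 158 RPKM in the hatched and 0.00605 in the middle blastocyst cells, while COL3A1 and LUM were listed at 0 in both. The part of any of these in the levels of the members was not tested.

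Variation from cell to cell was taken in the 4 sets of at least 6 cells, for members and for all genes with a mean of at least 100 RPKM, members included. In each of these sets the median coefficient of variation of the members was the lower one. In the 9 hatched cells of letter H it was 24.9% over 75 members and 40.9% over all 858 such genes. The figures were 31.8% and 46.8% in the 9 hatched cells of letter G, 38.3% and 76.2% in the 15 late blastocyst cells of G and 48.1% and 80.7% in the 6 outer early blastocyst cells of A. Members and all genes were not matched for level. Sets were also mixed in lineage markers, as in the late blastocyst cells of G, with summed epiblast markers of 44.4 to 12641 RPKM and hypoblast markers of 1.89 to 5474. The part of this in the spread of all genes was not tested. RPL6 was among the 3 steadiest members in both sets of hatched cells (8.83% in H and 21.1% in G). RPL13 was the most variable in the 3 sets of letters G and H, at 65.8%, 99.3% and 71.1% in hatched H, hatched G and late G, and RPL31 was in the outer early blastocyst cells (147%).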

How the data were processed

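RNA of 95 single cells was measured as poly(A)-tailed, PCR-amplified cDNA and sequenced in single 100-base reads, per the labels' protocols. The submitters' processing notes name FastQC, TopHat2 2.1.0, HTSeq and DESeq2, without roles, and the genome build is not given in the sources used here. The deposited table was read as RPKM from its values: 11784 of 16049 genes gave whole reads within 0.001 of a read, which held at least 99.85% of each cell's total. Groups came from the labels and every table column was mapped. The share is the members' summed RPKM over the cell's sum. Comparisons are log2 ratios of means after adding 1 RPKM, for genes at 5 RPKM or more on either side, and 2-fold marks a difference. Named members are the 3 largest in each direction, the 5 highest and lowest, those with the largest letter difference and role members. Others were chosen after their values were seen. No test was made, since a group is 1 sample. Members, lists and comparisons were chosen with earlier results of these data known. Alternatives covered members, denominator, pseudocount, filter, scaling and cells left out. Some genes, and the results that need them, are not reported here. The calculations were tested on simulated data. The table was analysed with Python 3.11.15, pandas 2.3.3, numpy 2.4.6, scipy 1.17.1 and matplotlib 3.10.9.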

Additional observations from a re-analysis of the deposited data

Results flagged for a closer look

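Of 28 sets of values with 4 to 10 cells examined for a cell far from the others, 1 was flagged, where chance flags about 1 in 20. In the 4 inner middle blastocyst cells of letter G, cell G-10 had a log2 large-to-small ratio of 0.0165, while the other 3 lay between -0.0546 and -0.0472. The gap is small beside the spread between sets of cells.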

How the results depend on the processing

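No paired analysis was possible because each sample is 1 cell, numbers in the titles name cells and pair none across groups, and no result comes from a test. Without the 50 genes of highest mean, 33 of them members, the ribosomal share of RNA was 7.11% in outer 16-cell B, 6.63% in inner 16-cell B, 14.3% in outer early morula H, 13.4% in inner early morula H, 6.24% in outer late morula D, 4.64% in inner late morula D, 4.39% in outer early blastocyst A, 5.21% in inner early blastocyst A, 13.2% in inner early blastocyst G, 31.8% in inner early blastocyst H, 3.68% in outer middle blastocyst B, 3.66% in inner middle blastocyst B, 14.8% in inner middle blastocyst G, 17.4% in inner middle blastocyst H, 15.3% in inner late blastocyst G, 14.2% in inner late blastocyst H, 15.7% in inner hatched blastocyst G and 14.5% in inner hatched blastocyst H cells. With FAU and GNB2L1 added, an alternative chosen after seeing the data, it moved by more than 1 SD in outer 16-cell B cells (29.9%), inner 16-cell B cells (29.0%), outer late morula D cells (31.4%), outer early blastocyst A cells (21.2%), outer middle blastocyst B cells (18.9%) and inner middle blastocyst B cells (22.6%). The order of letters A and B below G and H at the early and middle blastocyst was the same under both. Leaving out any 1 cell, or cells under 3000 genes, moved no set's share by more than 1 SD. No late blastocyst value of letter H exists without the cells of conflicting labels. The log2 large-to-small ratio by letter moved with medians of members to -0.52 (A), -0.87 (B), -1.11 (D), -0.46 (G) and -0.50 (H), and without the 3 highest members of each subunit to 0.79 (A), 0.80 (B), 0.59 (D), 0.28 (G) and 0.17 (H). Median-of-ratios size factors moved the median of all genes by more than 0.1 in outer against inner 16-cell cells (to -0.11), outer against inner late morula (to 0.41), outer against inner early blastocyst (to 0.19), outer against inner middle blastocyst (to 0.72), early morula against 16-cell (to -0.26), late against early morula (to 0.82), hatched against middle blastocyst of letter H (to -0.18), letters at the early blastocyst (to -0.56) and letters at the middle blastocyst (to 0.04). The counts of members past 2-fold that moved by more than 1.5 times were as follows. With no filter on low values the counts were 1 lower (outer against inner early morula). With medians over cells the counts were 1 higher (outer against inner early morula), 2 lower (outer against inner late morula), 1 higher (outer against inner early blastocyst), 4 lower (outer against inner middle blastocyst), 2 higher (hatched against middle blastocyst of letter H), 2 higher (hatched against earlier blastocyst of letter G), 1 higher (letters in the hatched blastocyst) and 2 lower (letters in the hatched blastocyst). With 10 RPKM added the counts were 0 lower (outer against inner late morula), 0 higher (outer against inner early blastocyst) and 0 lower (letters in the hatched blastocyst). With median-of-ratios size factors the counts were 25 higher (outer against inner late morula), 0 lower (outer against inner late morula), 0 lower (outer against inner middle blastocyst), 23 higher (late against early morula), 37 lower (hatched against middle blastocyst of letter H) and 7 lower (letters at the early blastocyst). With a filter at 20 RPKM the counts were 1 higher (outer against inner early blastocyst) and 0 higher (hatched against middle blastocyst of letter H). Without cells under 3000 genes the counts were 6 lower (outer against inner early blastocyst). With equal totals the counts were 1 lower (outer against inner middle blastocyst), 6 higher (hatched against middle blastocyst of letter H), 2 higher (hatched against earlier blastocyst of letter G) and 1 lower (hatched against earlier blastocyst of letter G). With the 9 cells of conflicting labels counted as hatched the counts were 0 lower (hatched against earlier blastocyst of letter G) and 0 lower (letters in the hatched blastocyst). Leaving out 1 cell at a time gave 7 to 13 higher (outer against inner 16-cell cells), 1 to 10 lower (outer against inner 16-cell cells), 0 to 1 higher (outer against inner early morula), 0 to 1 lower (outer against inner early morula), 9 to 19 higher (outer against inner late morula), 0 to 4 lower (outer against inner late morula), 1 to 3 higher (outer against inner early blastocyst), 4 to 16 lower (outer against inner early blastocyst), 6 to 23 higher (outer against inner middle blastocyst), 1 to 5 lower (outer against inner middle blastocyst), 1 to 4 higher (hatched against middle blastocyst of letter H), 1 to 3 higher (hatched against earlier blastocyst of letter G), 2 to 5 lower (hatched against earlier blastocyst of letter G), 0 to 1 higher (letters in the hatched blastocyst) and 0 to 2 lower (letters in the hatched blastocyst). In the other comparisons every such count stayed within 1.5 times. The cause of these changes was not tested.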

Other observations

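Within single sets of cells the large-subunit and small-subunit shares of RNA also went together. Pearson's r was 0.86 and Spearman's rho 0.80 over the 15 late blastocyst cells of letter G, 0.92 and 0.90 over the 9 hatched cells of letter G, and 0.94 and 0.90 over the 9 hatched cells of letter H. These are descriptions of cells that share stage, letter and the total over which both shares are taken.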
